A study of Arabidopsis thaliana with 6 samples.

Results

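The plastid-encoded photosynthesis genes studied here are 33 of the 36917 genes in the deposited table, taken by a list of plastid identifiers (ATCG numbers) that covers the psb, psa, pet, atp and rbcL genes. Their RNA was measured in Arabidopsis thaliana seedlings in 2 groups of 3 libraries, wild type and bbx14-1, both in the Col-0 background. The bbx14-1 line is named for a single allele of BBX14, a gene for a B-box transcription factor. Seeds of both groups were stratified in the cold and dark for 3 days on medium without sucrose and then lit for 2 h with white light. The seedlings then spent 3 days in darkness and 1 day in light, and the labels give day 4 as the time. A light intensity of 100 umol is recorded for both groups. Libraries were made from total RNA after removal of ribosomal RNA, with random primers, so plastid transcripts without a poly(A) tail were included. The labels name no organ and do not say that the samples of a group were grown separately, so the p-values rest on a spread that may be technical in part.

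Recovered depth ran from 20939505 to 32621183 reads per library. BBX14 itself was at 580 ± 90.0 normalized counts in wild type, against 767 ± 122 in the libraries labelled bbx14-1 (SD, n = 3). Its log2 difference of 0.40 was not called (limma, adjusted p = 0.0726). Since the target gene was not lower, that group is called the libraries labelled bbx14-1, and every direction below rests on that label. All values below named normalized counts are read counts divided by the authors' size factor for the library.

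The plastid genome of land plants encodes core subunits of the photosynthetic machinery. The psb genes encode subunits of photosystem II, the psa genes subunits of photosystem I, the pet genes subunits of the cytochrome b6f complex, the atp genes subunits of the chloroplast ATP synthase, and rbcL the large subunit of Rubisco. They are transcribed mainly by the plastid-encoded RNA polymerase, often as polycistronic RNAs that are then processed, and their products assemble with nuclear-encoded subunits while seedlings turn green in light. In the RefSeq annotation of TAIR10.1 the plastid genome holds 33 genes with these names, 15 psb, 5 psa, 6 pet, 6 atp and rbcL. They are 90 to 2253 bases long, with a median of 246 bases, and 12 of them are under 150 bases. psbD and psbC overlap by 53 bases, and atpE and atpB by 4. The deposited table lists ATCG numbers without symbols and none of the 33 numbers could be matched to a RefSeq locus tag, so single members are given by identifier, without a role, a length or a sequence. For that reason no level is compared between members per length, and shares of reads below are shares of reads, not of molecules.

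Of the 33 genes, 4 were called higher in the libraries labelled bbx14-1 and 29 were not called. These were ATCG00590, ATCG00220, ATCG00690 and ATCG00600, with log2 fold changes (libraries labelled bbx14-1 minus wild type) of 1.02, 0.88, 0.45 and 0.43 (limma, Benjamini-Hochberg adjusted p under 0.05 over all genes tested). No member was called lower, and 0 of the negative fold changes had an unadjusted limma p under 0.05. With limma's voom on recovered reads 5 members were called, all higher. All 33 passed the filter of a mean of at least 10 normalized counts. The lowest value of any member in any library was 1006 normalized counts, or 801 reads for the lowest count. The 4 calls are 12.1% of the members, beside 2.51% of all 19003 genes tested that were called higher and 2.14% called lower (4.65% in either direction). Of those 883 calls 477 were higher, whereas scaling to plastid reads outside the members gave 108 of 800 and scaling to all plastid reads 313 of 479. Among the other plastid genes the share was close to that of the members, with 12 of 85 tested called higher, 14.1% by limma, and 0 called lower, with 1 lower at an unadjusted p under 0.05.

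A positive fold change was measured for 29 of the 33 members, against 50.5% of all genes tested, and 66 of the 85 other plastid genes tested also had one. The members' count depended on the scaling and on 1 library. It was 17 under quantile normalization and 20 without replicate 2 of the libraries labelled bbx14-1. Scaling to plastid reads outside the members gave 8 and moved the median of all genes by -0.20. Quantile normalization gives genes of the same rank in every library an equal value, and so set ATCG00340 and ATCG00490, among others, to 0. The median log2 fold change was 0.09 over the members, 0.20 over the other plastid genes and 0.00 over all genes tested. For 24 members the fold change was smaller than 0.2 on the log2 scale in either direction. The libraries of the labelled bbx14-1 group were not alike. Its replicate 2 held the highest value of the 6 libraries for 25 members, while its replicate 3 held the lowest for 12. Wild type replicate 2 held the lowest value for 12 others and the highest for 0.

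**Figure D1:**
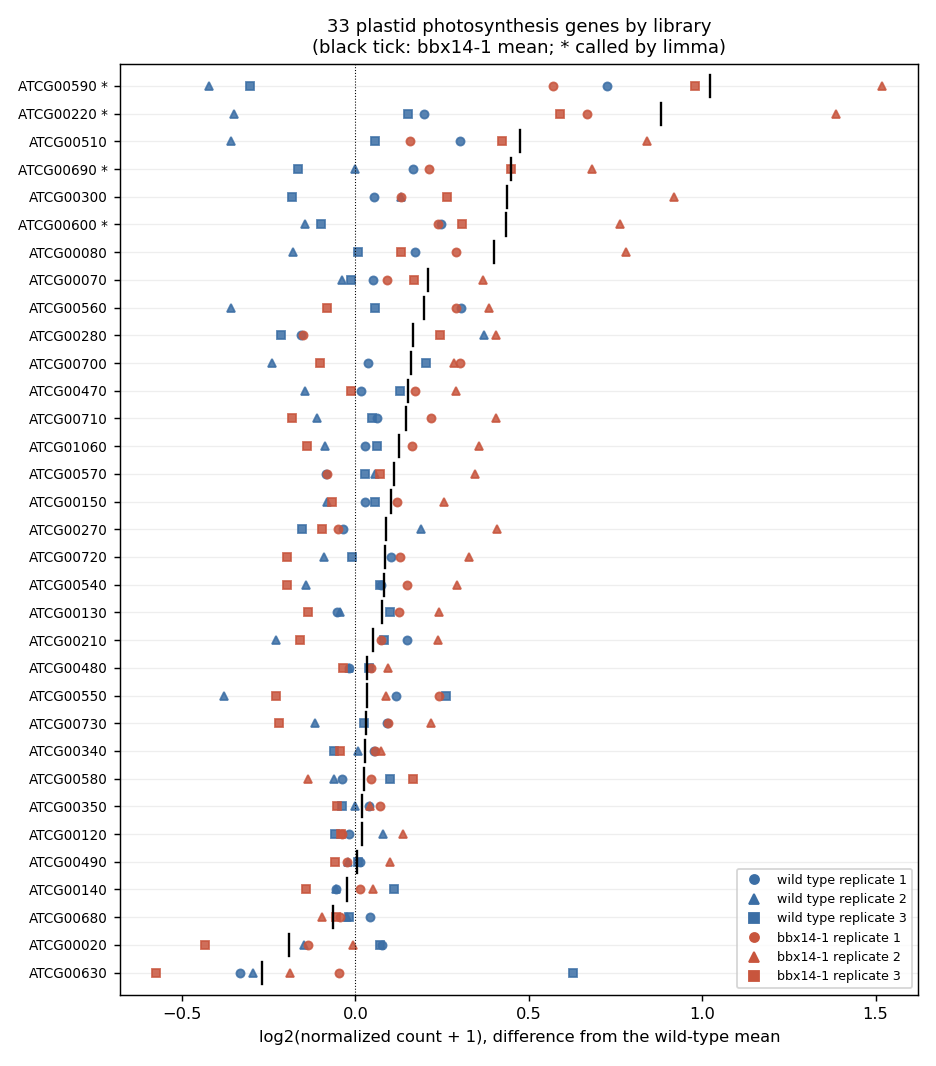
Level of each of the 33 plastid photosynthesis genes in each library, as log2(normalized count + 1) minus the wild-type mean (x axis, log2 units), with genes ordered by fold change; a black tick is the mean of the 3 libraries labelled bbx14-1 and an asterisk marks a gene called by limma. Replicate 2 of the libraries labelled bbx14-1 is the highest library for 25 genes, and the ticks lie between -0.27 and 1.02.

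ATCG00590 had the largest fold change of the members. It was at 2229, 1006 and 1090 normalized counts in wild type replicates 1, 2 and 3, against 2001, 3863 and 2659 in the libraries labelled bbx14-1. The groups overlapped, since wild type replicate 1 exceeded replicate 1 of the other group. The log2 fold change was 1.02 with a standard error of 0.21, or 2.03-fold with a 95% interval of 1.51 to 2.73 (limma, adjusted p = 0.0033). That interval rests on limma's variance trend, and without the trend the standard error was 0.37.

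ATCG00220 was at 4620, 3163 and 4474 normalized counts in wild type, against 6396, 10530 and 6063 in the libraries labelled bbx14-1. The groups did not overlap, and 1 library, replicate 2, lay well above the other 2 of its group. The log2 fold change was 0.88 with a standard error of 0.15, or 1.84-fold with a 95% interval of 1.48 to 2.28 (limma, adjusted p = 0.000638). Here too the interval rests on the variance trend, and the standard error was 0.26 without it.

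The other 2 called members rose less. ATCG00690 was at 22834, 20348 and 18164 normalized counts in wild type, against 23607, 32673 and 27774 in the libraries labelled bbx14-1, with no overlap, and its log2 fold change was 0.45 with a standard error of 0.12 (limma, adjusted p = 0.0221). ATCG00600 was at 10196, 7775 and 8021 in wild type, against 10133, 14578 and 10632 in the other group, where wild type replicate 1 lay within the range of the latter. Its log2 fold change was 0.43 with a standard error of 0.12 (limma, adjusted p = 0.0331). Both calls were lost without replicate 2 of the libraries labelled bbx14-1, where the log2 fold changes became 0.33 and 0.27 (limma, adjusted p = 0.133 and 0.225). Leaving out wild type replicate 2 ended both calls as well (limma, adjusted p = 0.0623 and 0.144), and so did leaving out wild type replicate 3 (limma, adjusted p = 0.163 and 0.156). When limma was run with no variance trend, none of the 4 calls was kept (adjusted p from 0.234 to 0.374), and over all genes 28 were called in place of 883. The standard errors of ATCG00690 and ATCG00600 were then 0.16 and 0.19.

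ATCG00510, ATCG00300 and ATCG00070 were higher in the group means without being called. ATCG00510 was at 12016, 7597 and 10125 normalized counts in wild type, against 10859, 17446 and 13049 in the libraries labelled bbx14-1, a log2 fold change of 0.47 in groups that overlapped (limma, adjusted p = 0.0564). It was called in 5 alternatives, such as voom (limma, adjusted p = 0.0455), and its log2 fold change ran from 0.29 to 0.63 without 1 library. ATCG00300 was at 28312, 29876 and 24041 in wild type, and at 29882, 51642 and 32771 under the bbx14-1 label, where the lowest library labelled bbx14-1 lay only just above the highest of wild type. Its log2 fold change was 0.44 (limma, adjusted p = 0.0897). It ran from 0.20 without replicate 2 of the libraries labelled bbx14-1 to 0.59 without replicate 1, where it was called (limma, adjusted p = 0.0255). ATCG00070 was at 64470, 60509 and 61709 in wild type, against 66296, 80270 and 69929 in the other group, without overlap, at 0.21 on the log2 scale (limma, adjusted p = 0.397). Counting called and uncalled genes, 4 members had every library labelled bbx14-1 above every wild-type library, and 1 had the reverse. Of all genes tested, 10.4% had the first pattern and 10.6% the second, and of the other plastid genes tested 18.8% and 2.35%. The 4 members are thus near the background of all genes, and the 1 is below it.

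**Figure D2:**
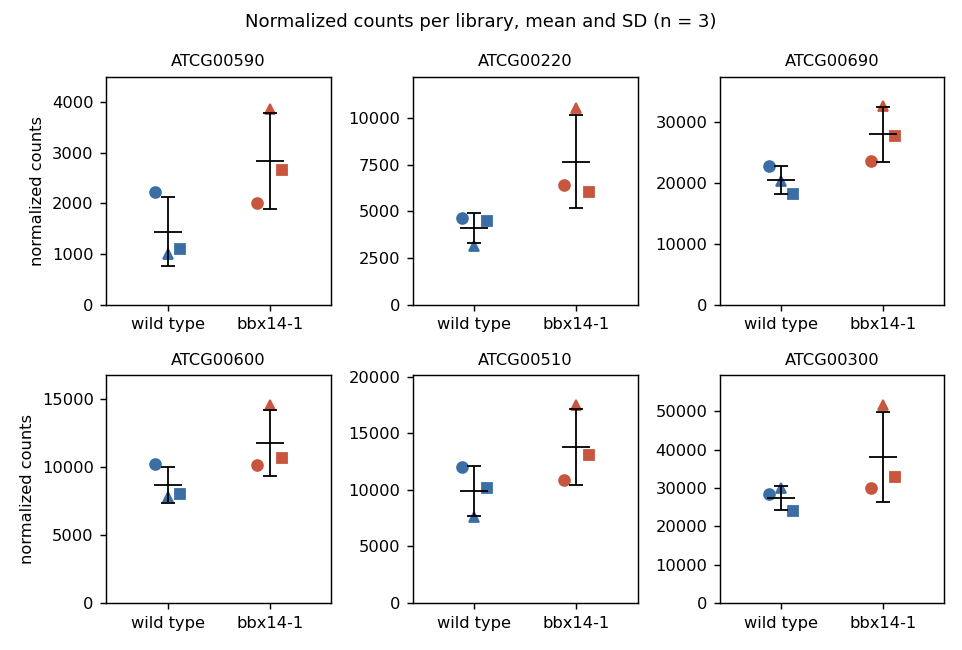
Normalized counts (y axis, from 0) of the 4 called genes and of ATCG00510 and ATCG00300 in each wild-type library (blue) and each library labelled bbx14-1 (red); circles, triangles and squares are replicates 1, 2 and 3, and bars are the mean and SD with n = 3. The red triangle, replicate 2, is the highest library in all 6 panels, and the groups overlap for ATCG00590, ATCG00600 and ATCG00510.

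The called members were among those with lower counts. Counts are not divided by gene length, so this order is one of reads and not of transcript abundance. Their means over the 6 libraries ran from 2141 to 24233 normalized counts, whereas the median of the members' means was 73967. Of the 16 members under that median 4 were called, with a median log2 fold change of 0.20 over the 16. Of the 17 at or over it 0 were called by limma, 0 had an unadjusted p under 0.05, and their fold changes ran from -0.19 to 0.17 with a median of 0.03. Over the 33 members, Spearman's rho between fold change and mean count was -0.74, and over the 85 other plastid genes tested it was 0.24. These are descriptions across genes that share the 6 libraries and their size factors, and genes are not independent replicates.

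**Figure D3:**
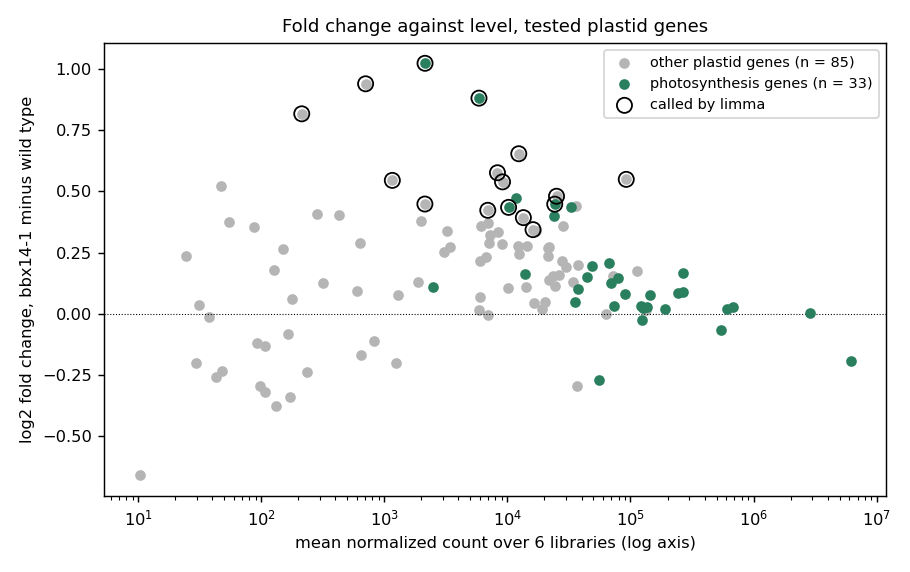
Log2 fold change (libraries labelled bbx14-1 minus wild type, y axis) against the mean normalized count over the 6 libraries (x axis, log axis) for the 33 photosynthesis genes (green) and the 85 other tested plastid genes (grey), with genes called by limma ringed. The 4 ringed green points lie at means between 2141 and 24233, and the photosynthesis genes with the highest counts lie near 0. Counts are not divided by gene length.

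ATCG00020 and ATCG00490 drew most of the reads of the group. ATCG00020 was at 6868789, 5879964 and 6848296 normalized counts in wild type, against 5926449, 6488581 and 4820236 in the libraries labelled bbx14-1, a log2 fold change of -0.19 with a 95% interval of -1.28 to 0.90 (limma, adjusted p = 0.906). The groups overlapped, and replicate 3 of the libraries labelled bbx14-1 was the lowest. ATCG00490 was at 2888828, 2822042 and 2875910 in wild type, against 2813869, 3068103 and 2746336 in the other group, a log2 fold change of 0.01 with a 95% interval of -0.80 to 0.81 (limma, adjusted p = 0.997). These intervals rest on the variance trend, and the standard errors of 0.53 and 0.39 were 0.15 and 0.10 without it.

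Further members with high counts were close to equal in the group means. ATCG00340 was at 701028, 678272 and 647033 normalized counts in wild type, against 701856, 711219 and 654181 in the libraries labelled bbx14-1. ATCG00680 was at 576385, 551086 and 553586 in wild type, and at 543310, 524557 and 539242 under the bbx14-1 label, which made it the 1 member whose libraries labelled bbx14-1 all lay below wild type, by -0.06 on the log2 scale (limma, adjusted p = 0.924). ATCG00720 was at 253683, 221688 and 234394 in wild type, against 258222, 296217 and 205859 in the other group, where the latter held both the highest and the lowest library.

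ATCG00120 and ATCG00140 showed the same picture. ATCG00120 was at 185212, 198455 and 180106 normalized counts in wild type, against 182955, 206322 and 182431 in the libraries labelled bbx14-1. ATCG00140 was at 121120, 121189 and 135838 in wild type, and at 127101, 130371 and 114079 under the bbx14-1 label. Both overlapped between the groups. Their log2 fold changes were 0.02 and -0.03, with 95% intervals of -0.30 to 0.34 and -0.31 to 0.26, without a call for either (limma, adjusted p = 0.971 and 0.959).

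ATCG00730 was at 144243, 124891 and 137778 normalized counts in wild type, against 144378, 157422 and 116111 in the libraries labelled bbx14-1, again with the extremes in the latter group. ATCG00470 was at 42156, 37639 and 45553 in wild type, and at 46971, 50966 and 41278 under the bbx14-1 label, with overlap, at 0.15 on the log2 scale (limma, adjusted p = 0.565). ATCG00630 had the lowest fold change of all members, -0.27 (limma, adjusted p = 0.496), and a single library decided its direction. Wild type replicate 3 was at 90478 normalized counts, beside 46436 and 47722 in wild type replicates 1 and 2, and 56647, 51345 and 39330 in those labelled bbx14-1. Without that library the log2 fold change was 0.04. The remaining 16 members, with 2233 to 630426 normalized counts per library, had log2 fold changes from 0.02 to 0.40, all of them positive, and 0 were called (limma, lowest adjusted p = 0.0803).

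The share of plastid reads that fell on the photosynthesis genes separated the groups. It was 92.421%, 92.418% and 92.428% in wild type replicates 1, 2 and 3, and 91.182%, 90.733% and 91.046% in the libraries labelled bbx14-1. The 3 wild-type libraries differed by less than the counting error of a single library, whose 95% Wilson interval reached from 92.402% to 92.434% in the shallowest. The means were 92.4% ± 0.00509 and 91.0% ± 0.230 (SD, n = 3), a difference of -1.44 percentage points. Every library labelled bbx14-1 lay below every wild-type library, which gives p = 0.1 in an exact two-sided permutation test, the smallest value that 3 libraries against 3 allow. Intervals cover counting error only.

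The difference in share did not rest on the member with most reads. With ATCG00020 left out of the members and of the total, the shares were 86.068%, 86.821% and 86.007% in wild type and 84.887%, 84.133% and 85.540% in the libraries labelled bbx14-1. The groups again did not overlap, with a difference of -1.45 points (exact two-sided permutation p = 0.1, n = 3). Leaving out any 1 library moved the difference between -1.53 and -1.31 points. Of the 100 plastid genes outside the group, 76 took a larger and 21 a smaller mean share of plastid reads in the libraries labelled bbx14-1. The largest gain was that of ATCG00040, 0.265 points of the 1.44 in all, and without that gene, an alternative chosen after its value was seen, the difference was -1.20 points. Shares of a total are not independent of each other. For 44.1% of the 118 plastid genes tested, the share of plastid reads did not overlap between the groups.

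As a share of all reads, the photosynthesis genes took 51.6%, 48.7% and 51.1% in wild type and 49.7%, 51.4% and 45.2% in the libraries labelled bbx14-1, with overlap (exact two-sided permutation p = 0.6, n = 3). All plastid genes together took 52.6% to 55.9% in wild type and 49.6% to 56.7% in the other group (exact two-sided permutation p = 0.8, n = 3). The plastid genes outside the group took 4.23%, 3.99% and 4.18% in wild type and 4.81%, 5.25% and 4.44% in the libraries labelled bbx14-1, without overlap (exact two-sided permutation p = 0.1, n = 3). The smallest adjusted p values among those genes were those of ATCG01130 and ATCG01000, with log2 fold changes that came to 0.65 and 0.94 (limma, adjusted p = 0.00103 and 0.00104). In bulk samples such as these, a difference in the number of cells of a type and one in RNA per cell cannot be told apart.

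**Figure D4:**
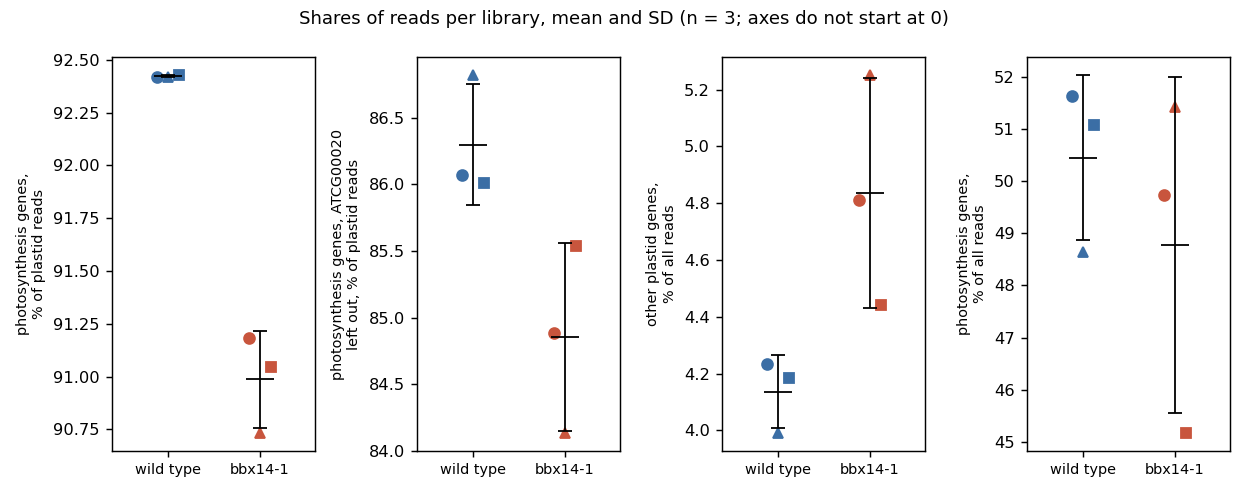
Shares of reads in percent (y axes, which do not start at 0) for each wild-type library (blue) and each library labelled bbx14-1 (red); circles, triangles and squares are replicates 1, 2 and 3, and bars are the mean and SD with n = 3. The photosynthesis genes take 92.4% of plastid reads in all 3 wild-type libraries and 90.7% to 91.2% in those labelled bbx14-1, whereas their shares of all reads overlap.

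Among the photosynthesis genes themselves, ATCG00020 took 49.3%, 46.0% and 49.6% of the members' reads in wild type and 45.7%, 45.8% and 41.8% in the libraries labelled bbx14-1. The groups did not overlap, though wild type replicate 2 lay only just above the other group (exact two-sided permutation p = 0.1, n = 3). ATCG00490 took 20.8%, 22.1% and 20.8% in wild type and 21.7%, 21.7% and 23.8% in the other group, with overlap (exact two-sided permutation p = 0.3, n = 3). The other members together took 29.9%, 32.0% and 29.5% in wild type and 32.6%, 32.5% and 34.4% in the libraries labelled bbx14-1, without overlap (exact two-sided permutation p = 0.1, n = 3). These shares are parts of the same total and are not independent.

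Plastid photosynthesis genes often lie in polycistronic units, and plastid identifiers are numbered along the genome. The members were therefore grouped into 14 listed sets of close identifiers, 10 of them with more than 1 member. Adjacency was not the only rule. ATCG00700 was a set of its own beside the set from ATCG00680 to ATCG00730, and ATCG00480 and ATCG00490 were in different sets. Whether the members of a set share a transcript is not recorded for these identifiers in the sources used here. In RefSeq, neighbouring genes of these families can lie on opposite strands, as petN and psbM do. A set is therefore not taken to be a polycistronic unit. The share of the members' reads did not overlap between the groups for 8 of the 14 sets, beside 33.3% of the 33 members taken singly. The smallest exact permutation p adjusted over the 14 sets was 0.175, and with 3 libraries against 3 it could not fall under 0.1. ATCG00020, alone in its set, was the 1 of the 8 that was lower in the libraries labelled bbx14-1. With the 10 most abundant genes removed, 0 sets were without overlap. That removal takes out ATCG00020 and ATCG00490, each a set of its own, among other genes, and sets lost members. The sets compared were therefore not the same 14.

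Ratios of reads between members of the same set within a library can be compared between libraries without the size factor or the gene length. Of 33 such pairs, 5 had ratios that did not overlap between the groups, or 15.2%, against 20.4% of all 6903 pairs of tested plastid genes and 15.3% of all 528 pairs of members. The count is thus near the background. The smallest exact permutation p adjusted over the 33 pairs was 0.471. With 3 libraries against 3 no such p can fall under 0.1, so no pair could have passed correction.

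The pair with the largest change of the 5 was ATCG00220 to ATCG00210, which need not share a transcript. For every 100 reads of ATCG00210 there were 12.0, 10.6 and 12.1 reads of ATCG00220 in wild type and 17.4, 25.6 and 19.5 in the libraries labelled bbx14-1, a log2 difference of 0.83 (exact two-sided permutation p = 0.1, n = 3). ATCG00210 itself differed by 0.05 on the log2 scale (limma, adjusted p = 0.891). Per 100 reads of ATCG00680 there were 3.96, 3.69 and 3.28 reads of ATCG00690 in wild type and 4.35, 6.23 and 5.15 in the other group, a log2 difference of 0.51 (exact two-sided permutation p = 0.1, n = 3). Per 100 reads of ATCG00270, ATCG00300 drew 11.2, 10.1 and 10.3 reads in wild type and 12.0, 15.1 and 13.5 in the libraries labelled bbx14-1, a log2 difference of 0.35 (exact two-sided permutation p = 0.1, n = 3).

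In the other 2 of these 5 pairs ATCG00730 was the numerator, with log2 differences of -0.42 relative to ATCG00690 and -0.12 relative to ATCG00710. Other pairs were steady across all 6 libraries. Per 100 reads of ATCG00340 there were 88.0, 88.4 and 90.2 reads of ATCG00350 in wild type and 89.8, 86.8 and 88.3 in the libraries labelled bbx14-1. In the set from ATCG00590 to ATCG00630 the ratios varied most within wild type. Per 100 reads of ATCG00590 there were 2083, 4743 and 8299 reads of ATCG00630 in wild type and 2831, 1329 and 1479 in the other group (exact two-sided permutation p = 0.2, n = 3).

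**Figure D5:**
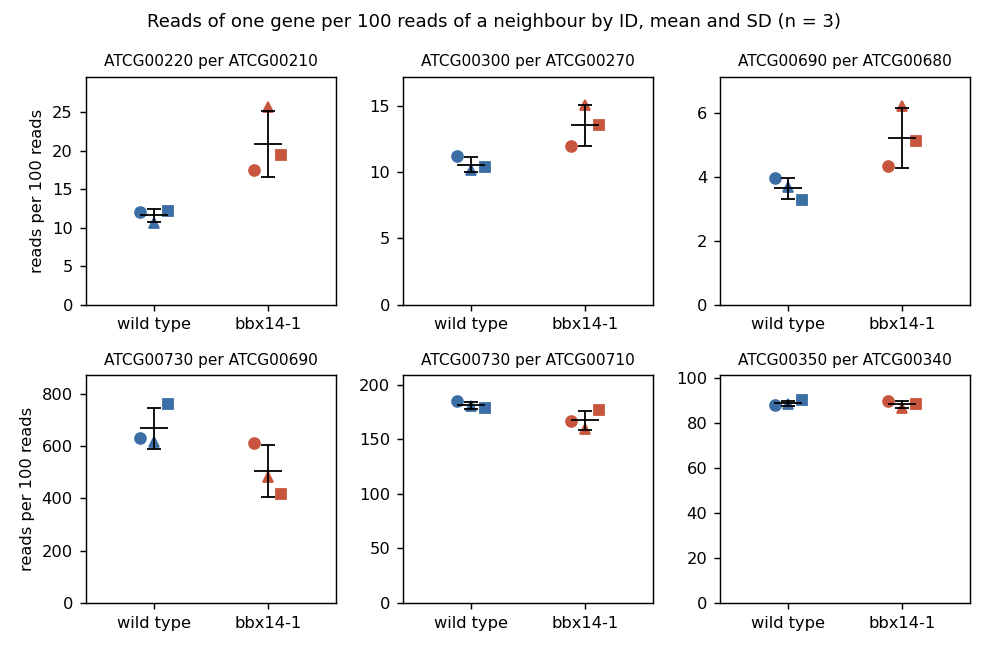
Reads of a gene per 100 reads of another gene of the same set (y axes, from 0) in each wild-type library (blue) and each library labelled bbx14-1 (red). Shown are the 5 pairs whose groups do not overlap and ATCG00350 per ATCG00340. Circles, triangles and squares are replicates 1, 2 and 3, and bars are the mean and SD with n = 3. ATCG00220 per ATCG00210 goes from 10.6 to 12.1 in wild type to 17.4 to 25.6, and ATCG00350 per ATCG00340 stays between 86.8 and 90.2.

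The nuclear genes that complete the same complexes or serve plastid gene expression were taken from 4 lists. Of 37 nuclear subunits of the photosystems, the electron transport chain, the ATP synthase and Rubisco, 6 were called higher and 0 lower, with a median log2 fold change of 0.20. Of all genes tested, 2.51% were called higher and 2.14% lower. At an unadjusted limma p under 0.05, 16 of the 37 were higher and 3 lower. The plastocyanin gene PETE1 rose by 0.54, ATPD, for the delta subunit of the chloroplast ATP synthase, by 0.52 and the photosystem I subunit genes PSAG, PSAH2 and PSAD-2 by 0.47, 0.46 and 0.40 (limma, adjusted p = 0.000471, 0.00169, 0.00642, 0.00225 and 0.00798). The Rubisco small subunit gene RBCS2B rose by 0.39 (limma, adjusted p = 0.0203), and reads of the near-identical RBCS genes may have been shared among them. RBCS1A, RBCS1B and RBCS3B were at 0.12, -0.28 and 0.07 without a call (limma, adjusted p = 0.753, 0.0892 and 0.874). Scaling to plastid reads outside the members ended all 6 calls, with log2 fold changes from 0.19 to 0.34, and 3 of the 6 calls were left without wild type replicate 1. RBCS2B lost its call in 8 of 19 alternatives.

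Of 8 genes for sigma factors and phage-type RNA polymerases, which select and transcribe plastid promoters, 0 were called, and their log2 fold changes ran from -0.53 to 0.17. SIGA and SIGF, the most abundant of them, were at 0.17 and -0.39 (limma, adjusted p = 0.42 and 0.0524). Among the 8, 4 had an unadjusted limma p under 0.05, all lower, and voom called 1, lower. The share of all genes under that unadjusted limit is not given here, so such counts have no background to be read against. Of 15 genes for proteins associated with the plastid-encoded polymerase, 1 was called lower, and 3 had an unadjusted limma p under 0.05, all lower. FLN1, a fructokinase-like member of that complex, was at 214, 276 and 205 normalized counts in wild type, against 173, 120 and 140 in the libraries labelled bbx14-1, a difference of -0.68 on the log2 scale (limma, adjusted p = 0.0256). Its call was lost in 6 of 19 alternatives. These included leaving out wild type replicate 1 or 2 (limma, adjusted p = 0.0616 and 0.14) and replicate 2 or 3 of the libraries labelled bbx14-1 (limma, adjusted p = 0.126 and 0.0625). Of 12 genes for factors that stabilize or help translate plastid photosynthesis mRNAs, 0 were called by limma or by voom, with a median of -0.05 and 3 genes, all lower, at an unadjusted p under 0.05. HCF173 and HCF244, both needed for translation of a photosystem II mRNA and the most abundant of the list, were at -0.06 and -0.09 (limma, adjusted p = 0.786 and 0.677).

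Markers of other tissues and stages were checked beside these results. The summed level of 9 root markers was 992 to 1107 CPM in wild type and 1264 to 1475 in the libraries labelled bbx14-1, with 7 tested and 0 called, and PYK10 carried most of it. NRT2:1 was at or near 0. The sum of 7 seed storage markers was 5.19 to 26.1 CPM in wild type and 2.69 to 3.10 in the other group. Of the 5 tested, CRU3, for a cruciferin, was called lower, at -2.22 on the log2 scale (limma, adjusted p = 0.00146). Its counts were 276, 70.3 and 58.5 in wild type, against 19.3 to 24 in the other group, with wild type replicate 1 far above the rest. Without that library the log2 fold change was -1.52 (limma, adjusted p = 0.0365). The sum of 7 shoot and mesophyll markers overlapped, at 27360 to 30751 and 26593 to 36006. The part of these differences in the results on plastid genes was not tested.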

How the data were processed

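The table deposited by the authors holds gene-level read counts scaled by DESeq2 size factors. The submitters' processing notes list the build TAIR10 and the tools DESeq2, featureCounts, TopHat2 2.1.1, FastQC and Trimmomatic. For the annotation release, the strand setting and reads that match several genes, the setting is not given in the sources used here. Dividing each column by its smallest positive value gave whole numbers, within 0.01, for 100% of values, and these were used as recovered reads. The lowest chi-square statistic per degree of freedom between libraries of a group was 8.08, so none was counted as a duplicate.

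The test was limma 3.58.1 (R 4.3.3) with a variance trend, applied to log2(normalized count + 1) of genes whose mean reached 10. P-values were two-sided and adjusted over all genes tested, and called under 0.05. Shares and ratios were computed from recovered reads and compared with exact permutation tests. The members, sets and lists were chosen with earlier results of these data known. Values of each library are given for called members, for those without overlap, and for the most abundant and the extreme fold changes within 5 families. The family list was written by hand, the sources used here do not annotate it, and no family is assigned to an identifier. From each nuclear list the called genes were named, and beside RBCS2B the other RBCS genes. A list with no call gave its 2 genes of highest mean. Alternatives were other pseudocounts, filters and scalings, no variance trend, voom, the replicate number as a block and leaving out each library. Fold changes are on that log2 scale. Replicate numbers did not pair the libraries: correlations of same-numbered deviations over 19003 genes were 0.04, 0.02 and -0.03.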

Additional observations from a re-analysis of the deposited data

How the results depend on the processing

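The count of 4 called members was 0 without the variance trend and 2 under quantile normalization, under scaling to plastid reads and under scaling to plastid reads outside the members, and it ran from 2 to 6 when 1 library was left out. ATCG00510 gained a call in 5 alternatives and ATCG00300 in 2. ATCG00220 and ATCG00590 kept their calls in 18 of 19 alternatives, and ATCG00690 and ATCG00600 in 12 of 19. With the replicate number as a block 5 members were called, ATCG00300 among them (limma, adjusted p = 0.0364), and 915 genes in all; libraries share no more than that number. The 883 calls over all genes were 28 without the trend and 479 under scaling to plastid reads, and 529 to 762 without 1 library. The 12 calls among other plastid genes were 0 without the trend, 1 under scaling to plastid reads outside the members, and 4 to 26 without 1 library. The 7 calls in the nuclear lists were 0 without the trend, 4 under scaling to plastid reads, and 4 to 8 without 1 library. Under scaling to plastid reads outside the members there were again 7, but 0 of them higher in place of 6. Scaling to plastid reads outside the members shifted the median of all genes by -0.20. There 8 members had a positive fold change in place of 29. Of the 17 members given by library, ATCG00120, ATCG00340, ATCG00470, ATCG00490, ATCG00720 and ATCG00730 turned to -0.18, -0.17, -0.0503, -0.20, -0.12 and -0.17, none below that shift. Quantile normalization left 17 members positive, and of those given by library ATCG00120, ATCG00720 and ATCG00730 turned to -0.10, -0.10 and -0.0927. Under scaling to plastid reads ATCG00140 turned to 0.0236. None of the members that turned was called. Without 1 library the fold changes ran from -0.0395 to 0.0589 for ATCG00120, -0.0639 to 0.0324 for ATCG00140, -0.0019 to 0.0657 for ATCG00340, -0.042 to 0.0379 for ATCG00490, -0.44 to 0.0443 for ATCG00630, -0.035 to 0.23 for ATCG00720 and -0.0645 to 0.16 for ATCG00730. The plastid share of all reads turned from -0.976 to 1.39 points, and the members' share from -1.67 to 0.401, without the 10 most abundant genes. That setting takes out ATCG00020 and ATCG00490, with most of the members' reads, so it describes the remaining genes and not the same quantity. Without 1 library the plastid share ran from -2.50 to 1.02 and the members' share from -2.99 to 0.128. The members' share of plastid reads kept its sign in all alternatives (-1.91 to -1.20), also with the replicate numbers paired (-1.44 points, exact permutation p = 0.25, n = 3). The count of 8 sets was 0 without the 10 most abundant genes, where sets lost members, and 8 to 10 without 1 library. That of 5 pairs was 6 to 17 without 1 library. Leaving out a library can keep or raise such counts but cannot lower them, so these ranges do not show whether they rest on 1 library. The cause of these changes was not tested. The tests with edgeR and DESeq2 were not run. With 3 libraries per group, precision rests on their number, not on depth.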
